A study of Mus musculus with 12 samples.

Results

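The expression of 10 regulators of lipid synthesis was examined in mouse liver: the sterol regulatory element binding protein (SREBP) genes Srebf1 and Srebf2, the SREBP escort and retention genes Scap, Insig1 and Insig2, the carbohydrate response element binding protein gene Mlxipl with its partner Mlx, the liver X receptor (LXR) genes Nr1h2 and Nr1h3, and the E-box factor gene Usf1. The genes were selected by name, with earlier results of these data known, and each matched 1 of the 55385 features of the expression table. All 10 passed the filter on low values (a mean of 1 TPM or more), as did 16378 features in all. TPM are by definition read counts divided by length and scaled so that each sample sums to 1000000, so levels of different genes in a liver can be set side by side. The lengths used for these values are not given, and comparisons of level between genes depend on them.

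SREBPs are made as precursors in the membrane of the endoplasmic reticulum. When sterols are low, SCAP escorts them to the Golgi, where proteases release the transcription factor domain, and when sterols are high the INSIG proteins hold SCAP back. In liver, SREBP-1c (from Srebf1) activates fatty acid synthesis in response to insulin and LXR, SREBP-2 (from Srebf2) activates cholesterol synthesis, and ChREBP (from Mlxipl) activates glycolytic and lipogenic genes in response to sugar. These factors are regulated by cleavage, translocation and ligand as well as by the amount of their mRNA, and only mRNA was measured here.

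The samples were whole livers of male C57BL/6 wild-type mice, 4 in each of 3 groups, infected with adenovirus at 7 weeks of age and killed 7 days later. Control mice received Lac and pAdv5 viruses, knockdown mice received shmGULL and pAdv5 viruses, in which a short hairpin RNA is directed against the mouse long noncoding RNA mGULL, and rescue mice received shmGULL together with a virus for the human counterpart hGULL. Each group received 500000000 plaque-forming units in all, so every liver had been exposed to adenovirus. Delivery was given as intravitreal for these mice, whereas the general protocol for adenovirus named the retro-orbital route. The knockdown was transient, was directed at the liver of living mice and covered animals of 1 sex and strain. The level of mGULL was not analysed here, so the knockdown itself was not checked in these data. The study measured its efficiency by qPCR in adenovirus-infected wild-type mice. Mice are numbered 1 to 4 within a group as in the sample labels.

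Between 15525 and 16929 features lay above 1 TPM in a sample, and read depth is unknown because TPM keep no totals. The 8 hepatocyte markers summed to between 75874 and 125670 TPM over the 12 livers and none was at 0. Markers of other liver cells were present in all groups as well. The 11 Kupffer cell markers summed to 728 to 1224 TPM in control, 695 to 1207 TPM in knockdown and 870.3 to 1092 TPM in rescue livers. In whole tissue, a lower level of a gene in its cells and fewer of those cells cannot be told apart.

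The start sites of the genes are shown first, because 2 of the genes the results turn on have several. RefSeq (assembly GRCm38.p6, the build named for the deposited values) places 18 starts at the 10 genes. Srebf1 lies at chr11:60199084-60224186 on the minus strand with 3 starts that span 12110 bases. The most downstream of them is the one from which SREBP-1c is known to be transcribed. Mlxipl lies at chr5:135089890-135139768 on the plus strand with 2 starts 17001 bases apart. The downstream start is known to give the glucose-responsive form ChREBP-alpha, and the upstream start gives the shorter form ChREBP-beta. Insig1 lies at chr5:28071412-28078662 on the plus strand with 1 start. The 250 bases before 4 of these starts are printed 5′ to 3′ along the strand of the gene, with motifs in capitals. The 9 letters AGTAACCCC are shared by the LXR response elements known in the SREBP-1c promoter, CACGTG is the E-box bound by basic helix-loop-helix factors such as USF, MLX dimers and SREBP, and TCACNCCAC is the sterol regulatory element.
Srebf1, downstream start (chr11:60210472-60210721, minus strand): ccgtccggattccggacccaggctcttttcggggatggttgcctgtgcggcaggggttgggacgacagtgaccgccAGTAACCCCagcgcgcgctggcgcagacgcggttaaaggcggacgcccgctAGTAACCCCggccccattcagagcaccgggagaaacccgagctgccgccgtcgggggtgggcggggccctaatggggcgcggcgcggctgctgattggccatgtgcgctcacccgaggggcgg
Insig1 (chr5:28071162-28071411, plus strand): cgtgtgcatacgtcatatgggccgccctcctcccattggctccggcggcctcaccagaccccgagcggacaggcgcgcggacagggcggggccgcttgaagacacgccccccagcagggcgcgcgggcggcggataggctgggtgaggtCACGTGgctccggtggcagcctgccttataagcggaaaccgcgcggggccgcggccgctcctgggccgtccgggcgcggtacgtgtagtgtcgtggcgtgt
Mlxipl, upstream start (chr5:135089640-135089889, plus strand): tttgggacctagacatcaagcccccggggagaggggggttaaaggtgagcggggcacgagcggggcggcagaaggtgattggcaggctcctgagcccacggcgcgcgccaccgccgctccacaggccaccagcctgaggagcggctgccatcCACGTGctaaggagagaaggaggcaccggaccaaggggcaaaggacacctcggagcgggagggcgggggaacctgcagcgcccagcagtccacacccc
Mlxipl, downstream start (chr5:135106641-135106890, plus strand): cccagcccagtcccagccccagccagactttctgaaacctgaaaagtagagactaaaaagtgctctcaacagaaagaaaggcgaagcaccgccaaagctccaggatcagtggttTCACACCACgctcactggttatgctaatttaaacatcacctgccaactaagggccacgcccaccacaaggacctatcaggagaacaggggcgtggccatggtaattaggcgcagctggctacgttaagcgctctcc

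In the Srebf1 sequence the letters AGTAACCCC stood at 174 to 166 and again at 123 to 115 bases before the start. They were found in 40 of 32851 RefSeq mouse promoters of this length (0.122%, both strands), and the motif was picked after this sequence had been read. The E-box stood 101 to 96 bases before the Insig1 start and 98 to 93 bases before the upstream Mlxipl start. CACGTG was found in 6.02% of all promoters and in 4 of the 18 of these genes, 1 each at Insig1, Mlx, Mlxipl and Scap. The letters TCACNCCAC stood 136 to 128 bases before the downstream Mlxipl start and occurred in 1.05% of all promoters. CCAAT, the motif of the SREBP cofactor NF-Y, is not marked in the sequences. It was found in 33.8% of all promoters and in 7 of the 18 of these genes (at Insig1, Insig2, Mlx, Mlxipl, Srebf1 and Srebf2). Neighbouring starts of 1 gene can share bases, as at Scap, whose 2 starts were 68 bases apart. These matches describe letters in a window and do not show binding. The TPM are per gene, so SREBP-1c and SREBP-1a, or ChREBP-alpha and ChREBP-beta, could not be read separately. The same holds for transcripts from the 3 starts of Insig2, which span 4911 bases.

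In control livers, the highest of the 10 levels was that of Mlxipl at 148 ± 12.4 TPM (mean ± SD, n = 4 mice, as for all groups), followed by Insig1 at 142 ± 6.80, Nr1h3 at 109 ± 9.55, Insig2 at 98.2 ± 26.8 and Srebf1 at 96.5 ± 15.7 TPM. A lower tier held Scap at 59.2 ± 7.51, Mlx at 40.3 ± 4.66, Nr1h2 at 32.5 ± 3.33, Srebf2 at 29.1 ± 1.71 and Usf1 at 24.8 ± 3.09 TPM. The ranges of neighbours in this order overlapped except between Insig1 and Nr1h3, between Srebf1 and Scap, and between Scap and Mlx. In knockdown livers, the order of the upper tier was Insig1, Mlxipl, Srebf1, Nr1h3 and Insig2. The ranges of Insig1 and Mlxipl and of Mlxipl and Srebf1 overlapped there, whereas Srebf1 lay wholly above Nr1h3, and Nr1h3 above Insig2. In rescue livers, the upper tier ran Mlxipl, Insig1, Srebf1, Nr1h3 and Insig2, and only Insig1 and Srebf1 were neighbours without overlap. The lower tier ran Scap, Mlx, Srebf2, Nr1h2 and Usf1 in both of these groups. It was separated from the upper tier in every group.

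**Figure D1:**
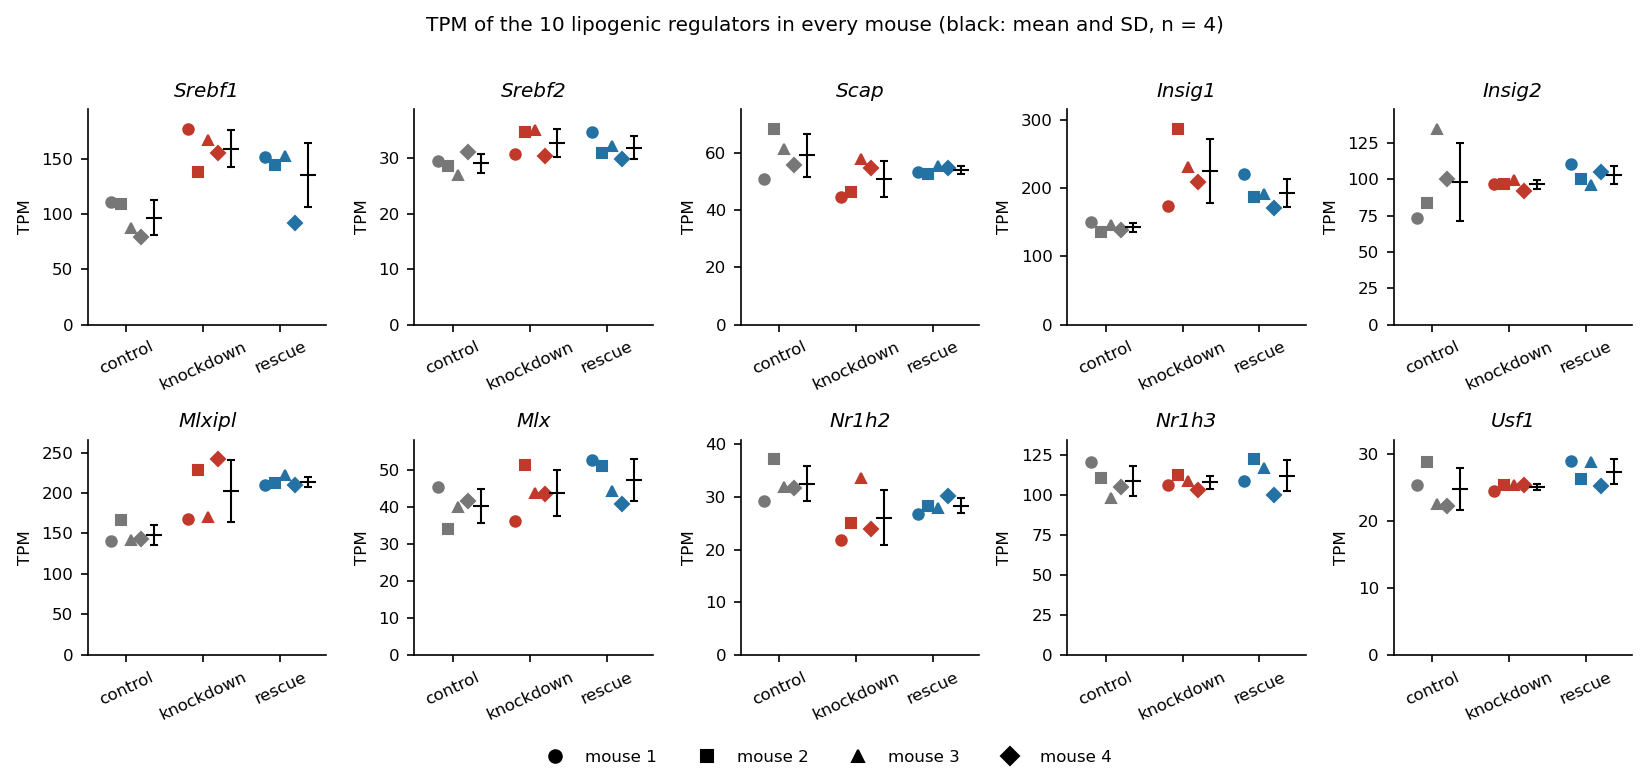
Level of each of the 10 regulators in TPM on a linear axis from 0, one panel per gene, with a point per mouse and a bar at the group mean ± SD (n = 4). The 4 knockdown points of Srebf1 and of Insig1 sit above all 4 control points, and the 4 rescue points of Mlxipl sit close together above all control points.

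Srebf1 was higher after knockdown of mGULL. Its level was 110.4, 109, 87.5 and 78.9 TPM in control mice 1 to 4, 177, 138, 167 and 155 TPM in knockdown mice, and 152, 144, 152 and 92.0 TPM in rescue mice. All 4 knockdown livers lay above all 4 control livers, and 3 of the rescue livers lay within the knockdown range while rescue mouse 4 lay within the control range. The knockdown mean of 159 ± 16.8 TPM was 1.65 times the control mean. On the log2(TPM + 1) scale the difference was 0.72 (SE 0.16, 95% interval 0.37 to 1.08, adjusted p = 0.0373 by limma with Benjamini-Hochberg adjustment over all 16378 features). The rescue mean was 135 ± 28.9 TPM, 0.26 below knockdown on the log2 scale with an interval of −0.61 to 0.098 (adjusted p = 0.572 by limma). Against control, rescue was 0.46 higher (interval 0.11 to 0.82, adjusted p = 0.116), and the groups overlapped. The knockdown difference lost its call with the median-of-ratios scaling (0.61, adjusted p = 0.0854) and when any of 7 single mice was left out: control mouse 2, 3 or 4, knockdown mouse 1, 2 or 4, or rescue mouse 2 (adjusted p between 0.0542 and 0.104). No filter, quantile normalization and only the 2 groups compared removed that call as well (adjusted p between 0.0523 and 0.0787 by limma).

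Srebf2, the cholesterol synthesis regulator of the family, was at 29.5, 28.7, 27.0 and 31.1 TPM in control, 30.8, 34.7, 35.2 and 30.3 TPM in knockdown and 34.8, 31.0, 32.1 and 29.8 TPM in rescue mice. The groups overlapped. The log2 difference of knockdown from control was 0.16 (interval −0.0093 to 0.34, adjusted p = 0.272 by limma) and that of rescue from control was 0.13 (adjusted p = 0.322), a direction that turned to −0.069 under the median-of-ratios scaling. In TPM, Srebf1 exceeded Srebf2 by a ratio of 3.33 ± 0.588 in control, 4.89 ± 0.746 in knockdown and 4.21 ± 0.763 in rescue livers. The ratio within a liver does not depend on how that liver was scaled. All 4 knockdown ratios lay above all 4 control ratios, a log2 difference of 0.56 (exact two-sided permutation p = 0.0286, the smallest that 4 against 4 can give, and 0.214 after adjustment over 12 ratio tests).

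**Figure D2:**
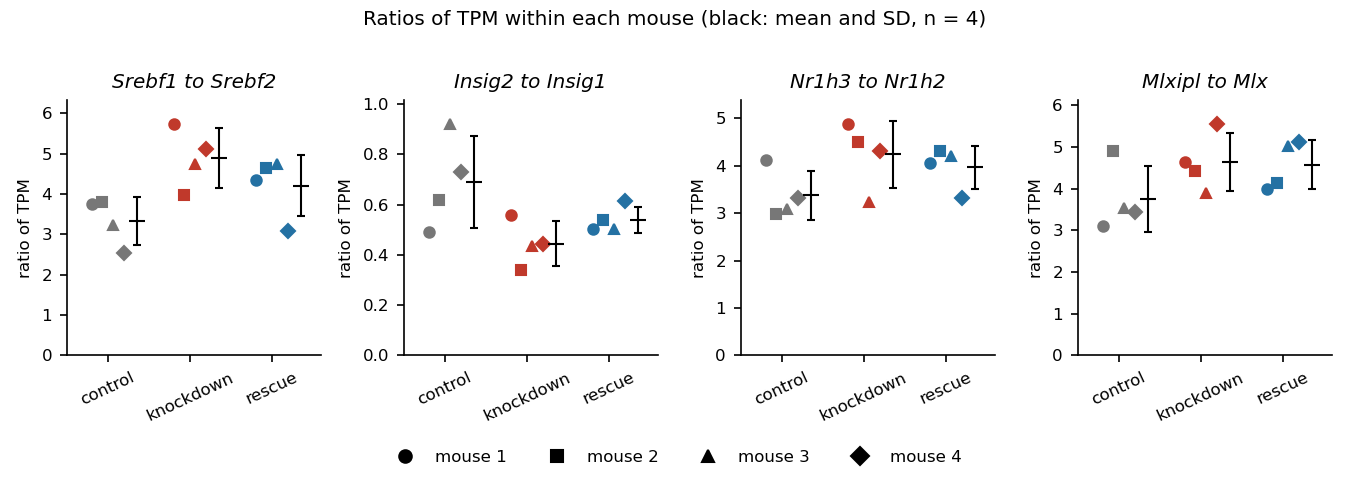
Ratios of TPM within each liver for Srebf1 to Srebf2, Insig2 to Insig1, Nr1h3 to Nr1h2 and Mlxipl to Mlx, on linear axes from 0, with a point per mouse and a bar at the mean ± SD (n = 4). The groups stand apart only for Srebf1 to Srebf2 between knockdown and control, and all other pairs of groups overlap.

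Insig1, the INSIG gene that SREBPs themselves activate, was the other regulator with a called difference after knockdown. Its level was 149.9, 135, 146 and 138 TPM in control mice 1 to 4, 174, 286, 229.9 and 208 TPM in knockdown mice and 220.2, 187, 190.5 and 171 TPM in rescue mice. Both the knockdown and the rescue livers lay wholly above the control livers and overlapped each other. The spread also differed, with a coefficient of variation of 4.78% in control, 21.0% in knockdown and 10.7% in rescue livers. The knockdown mean of 224 ± 47.2 TPM was 1.58 times the control mean (log2 difference 0.63, SE 0.13, interval 0.35 to 0.91, adjusted p = 0.0253 by limma). The rescue mean of 192 ± 20.6 TPM was 0.21 below knockdown on the log2 scale (interval −0.49 to 0.075, adjusted p = 0.569). It was 0.42 above control (interval 0.14 to 0.71), without passing the threshold (adjusted p = 0.0868). The knockdown call was kept under the median-of-ratios scaling (0.52, adjusted p = 0.0160) and was lost when control mouse 2, 3 or 4 or knockdown mouse 2 was left out (adjusted p between 0.0503 and 0.0717). That call was also lost with no filter (adjusted p = 0.0541 by limma) and with only the 2 groups compared (adjusted p = 0.0886).

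Insig2 encodes the second INSIG, whose liver transcript is known to be lowered by insulin. It lies at chr1:121304353-121332662. Its level was 73.7, 83.6, 135 and 101 TPM in control, 96.9, 97.1, 99.7 and 92.3 TPM in knockdown and 110.5, 100.5, 96.0 and 105 TPM in rescue mice. The control livers spread over both other groups, with a coefficient of variation of 27.3% against 3.17% in knockdown and 5.99% in rescue. The log2 differences were 0.012 for knockdown and 0.10 for rescue against control (adjusted p = 0.976 and 0.670 by limma), and both turned negative under the median-of-ratios scaling (−0.097 and −0.0998). The interval of the knockdown difference ran from −0.30 to 0.32. The TPM ratio of Insig2 to Insig1 was 0.690 ± 0.183 in control, 0.444 ± 0.0896 in knockdown and 0.539 ± 0.0524 in rescue livers. The log2 difference of this ratio was −0.62 between knockdown and control (exact permutation p = 0.0571, adjusted p = 0.214), and the groups overlapped.

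Scap, the escort, was at 51.1, 68.5, 61.5 and 55.7 TPM in control, 44.6, 46.4, 57.8 and 54.8 TPM in knockdown and 53.3, 52.6, 55.7 and 54.8 TPM in rescue mice. Control and knockdown overlapped, and the rescue livers lay inside the range of both. The log2 difference of knockdown from control was −0.21 (interval −0.44 to 0.010, adjusted p = 0.268 by limma), and that of rescue from control was −0.12 (adjusted p = 0.476).

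Mlxipl was called higher in rescue than in control livers, and its difference between knockdown and control did not pass the test. Its level was 141, 167, 142 and 144 TPM in control mice 1 to 4, 168, 228, 171 and 242 TPM in knockdown mice and 210.4, 212, 223 and 209.8 TPM in rescue mice. The lowest knockdown liver was close to the highest control liver, at 168 against 167 TPM, and the knockdown livers formed a lower and a higher pair. The rescue livers lay between 209.8 and 223 TPM, a coefficient of variation of 2.85% against 18.99% in knockdown and 8.38% in control. The rescue mean of 214 ± 6.10 TPM was 1.44 times the control mean (log2 difference 0.53, SE 0.12, interval 0.27 to 0.78, adjusted p = 0.0441 by limma). The knockdown mean of 202 ± 38.3 TPM was 1.36 times the control mean (log2 difference 0.43, SE 0.12, interval 0.17 to 0.68, adjusted p = 0.0662). Rescue exceeded knockdown by 0.10 with an interval of −0.15 to 0.35 (adjusted p = 0.752). The rescue call was lost under the median-of-ratios scaling, where the difference was 0.32 (adjusted p = 0.241). That call was lost as well with no filter, quantile normalization or a replicate block (adjusted p = 0.0876, 0.144 and 0.0647 by limma). It was also lost in 8 of the 12 fits without 1 mouse, those without control mouse 2, 3 or 4, knockdown mouse 4 or any rescue mouse (adjusted p between 0.0532 and 0.146). Without knockdown mouse 1 or mouse 3 the knockdown difference was called as well (0.51 and 0.50, adjusted p between 0.0315 and 0.0392).

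Mlx, the obligate dimer partner of ChREBP, lies at chr11:101086707-101092207. It was at 45.3, 34.1, 40.1 and 41.7 TPM in control, 36.2, 51.4, 43.7 and 43.4 TPM in knockdown and 52.8, 51.1, 44.3 and 40.9 TPM in rescue mice. The groups overlapped, and the log2 differences from control were 0.11 for knockdown (adjusted p = 0.666 by limma) and 0.22 for rescue (interval −0.039 to 0.49, adjusted p = 0.262). The TPM ratio of Mlxipl to Mlx was 3.75 ± 0.785 in control, 4.63 ± 0.693 in knockdown and 4.57 ± 0.591 in rescue livers. Its log2 difference from control was 0.32 in knockdown (exact permutation p = 0.114) and 0.30 in rescue (exact permutation p = 0.143), each 0.214 after adjustment over the 12 ratio tests.

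The LXR genes showed no called difference. Nr1h3 encodes LXR-alpha, the main hepatocyte form that induces Srebf1, and lies at chr2:91184061-91202829. It was at 121, 110.4, 98.0 and 105 TPM in control, 106, 113, 109 and 103 TPM in knockdown and 109, 122, 117 and 100.1 TPM in rescue mice. The knockdown livers all lay inside the control range, and the log2 difference was −0.0074 with an interval of −0.19 to 0.17 (adjusted p = 0.9753 by limma). Its sign depended on the setting, at 0.0058 with array weights. Rescue differed from control by 0.045 (adjusted p = 0.756), which became −0.16 under the median-of-ratios scaling.

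Nr1h2 encodes LXR-beta, the widely expressed form, and lies at chr7:44549616-44553968. It was at 29.2, 37.1, 31.8 and 31.7 TPM in control, 21.8, 25.04, 33.6 and 23.9 TPM in knockdown and 26.8, 28.3, 27.8 and 30.2 TPM in rescue mice. Knockdown mice 1, 2 and 4 lay below every control liver, and knockdown mouse 3 lay within the control range. The log2 difference was −0.32 (interval −0.58 to −0.061, unadjusted p = 0.0195 and adjusted p = 0.153 by limma). Without knockdown mouse 3 it was −0.44 and called (adjusted p = 0.0216), and in the other 11 fits without 1 mouse it was not called. The rescue difference from control was −0.19 (adjusted p = 0.334). The TPM ratio of Nr1h3 to Nr1h2 was 3.37 ± 0.523 in control, 4.24 ± 0.704 in knockdown and 3.97 ± 0.452 in rescue livers, and the log2 difference of 0.31 between knockdown and control had an exact permutation p of 0.0857 (adjusted p = 0.214).

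Usf1, an E-box factor known to act on the Fasn promoter after feeding, lies at chr1:171411307-171418954. Its mean was the lowest of the 10 regulators in each group, at 25.4, 28.9, 22.6 and 22.2 TPM in control, 24.4, 25.3, 25.4 and 25.3 TPM in knockdown and 29.0, 26.2, 28.8 and 25.3 TPM in rescue mice. The knockdown livers differed by about 1 TPM and lay inside the control range. The log2 differences from control were 0.027 (adjusted p = 0.901 by limma) and 0.14 (adjusted p = 0.326), and both were negative under the median-of-ratios scaling (−0.079 and −0.054).

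Across the 10 regulators, 2 were called higher and 0 lower in knockdown against control, where 2.44% of the 16378 features were called higher and 0.794% lower. The same 2 passed the threshold of the study (log2 fold change beyond 0.5 with p under 0.05), and 5.35% of all features passed it upwards. The groups stood apart without overlap for 3 regulators, all higher in knockdown, and in that direction for 6.93% of all features. At an unadjusted p under 0.05 there were 4 regulators (Srebf1, Insig1, Mlxipl and Nr1h2) and 20.2% of all features. The median log2 difference was 0.069 over the 10 regulators and 0.087 over all features.

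In rescue against knockdown, 0 of the 10 regulators were called by limma. The smallest unadjusted p was 0.136 and none was under 0.05, while 1757 of all features (10.7%) had an unadjusted p under 0.05. Over all features the share called after adjustment was 0.0%, so the comparison yielded no call for any gene. The sizes ran from −0.26 for Srebf1 to 0.13 for Nr1h2 on the log2 scale, and the groups overlapped for all 10 regulators, where 6.38% of all features stood apart.

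In rescue against control, 1 regulator was called higher (Mlxipl) and 0 lower, against 2.12% and 0.0244% of all features. Both Mlxipl and Insig1 stood above control without overlap, as did 21.4% of all features. At an unadjusted p under 0.05 there were 3 regulators (Mlxipl, Insig1 and Srebf1) and 25.3% of all features. The median log2 difference over all features was 0.17 here, and the median-of-ratios scaling brought it to −0.0055. Relative to the median of all features, the rescue differences were 0.35 for Mlxipl, 0.29 for Srebf1, 0.25 for Insig1, −0.29 for Scap and −0.36 for Nr1h2. The comparisons of knockdown and of rescue with control share the 4 control livers.

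**Figure D3:**
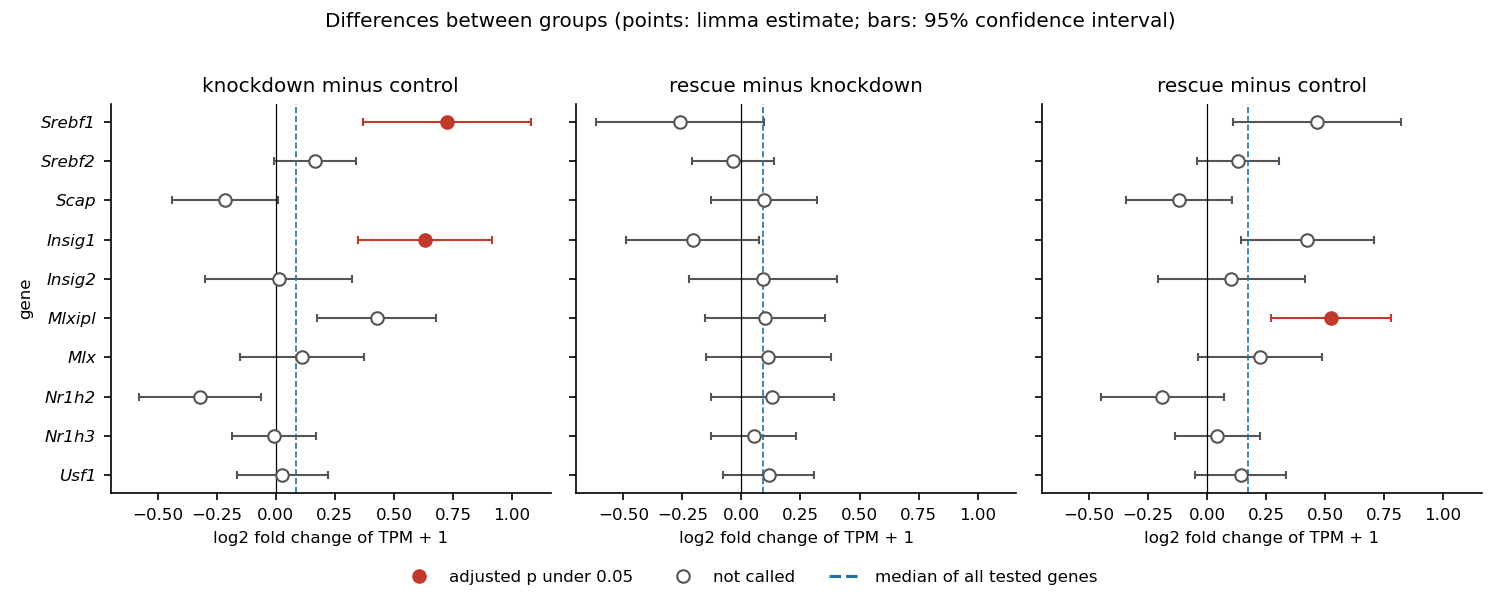
Log2 differences of the 10 regulators with 95% intervals from limma in the 3 comparisons, where filled symbols mark an adjusted p under 0.05 and the dashed line marks the median of all features. Filled symbols are present for Srebf1 and Insig1 in knockdown against control and for Mlxipl in rescue against control, and none is present in rescue against knockdown.

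The genes on which these factors act were counted next, in lists that do not hold the 10 regulators. No gene was placed in several lists, although SREBP-1c and ChREBP both act on lipogenic genes. The counts therefore do not separate the factors. Of 19 fatty acid and triglyceride synthesis genes known as SREBP-1 targets, 13 were called higher and 0 lower in knockdown against control, beside 2.44% and 0.794% of all features, with a median log2 difference of 0.95. The count was 8 without control mouse 3 or without knockdown mouse 2. The 13 included Pnpla3, which averaged 0.713 TPM in control, 3.73 TPM in knockdown and 2.19 TPM in rescue livers. Pnpla3 thus passed the filter on low values only through the groups in which it was higher. The largest were Thrsp (2.06), a lipogenic protein of liver, Elovl6 (1.99), a fatty acid elongase, Fasn (1.87), the fatty acid synthase, and Acly (1.81), which makes cytosolic acetyl-CoA. Their log2 differences exceeded the 0.72 of Srebf1 itself. Of 13 ChREBP targets, 7 were called higher and 0 lower, beside the same 2.44% and 0.794%, with a median of 0.87. They included the liver pyruvate kinase gene Pklr, at 162 ± 28.5 TPM in control and 422 ± 90.1 TPM in knockdown (1.37, adjusted p = 0.00606 by limma), and the fructokinase gene Khk, at 376 ± 61.6 and 759 ± 75.6 TPM (1.02, adjusted p = 0.00606). G6pc, the glucose-6-phosphatase, was 0.93 higher.

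Of 22 cholesterol synthesis and uptake genes known as SREBP-2 targets, 2 were called higher and 0 lower in knockdown (all features 2.44% and 0.794%), with a median of 0.26. The count was 6 without knockdown mouse 1, 0 without control mouse 2, 3 or 4 or knockdown mouse 2, 3 without control mouse 1, and 1 without any other mouse. They included Acat2, the cytosolic acetoacetyl-CoA thiolase, at 26.9 ± 3.74 TPM in control and 44.0 ± 9.94 TPM in knockdown (0.67, adjusted p = 0.0422). Of 13 LXR targets of sterol export and lipid remodelling, 0 were called by limma and 4 had an unadjusted p under 0.05 (2 higher and 2 lower), as had 20.2% of all features, with a median of 0.095, near the 0.087 of all features. The largest differences among them were those of Pltp, the phospholipid transfer protein (0.96, adjusted p = 0.0795), and Lpcat3, which puts polyunsaturated chains into phospholipids (0.56, adjusted p = 0.0610). With the median-of-ratios scaling or without knockdown mouse 4, 2 LXR targets were called. The count was 1 with quantile normalization, with array weights, or without control mouse 1, knockdown mouse 1 or knockdown mouse 3.

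A list of 24 genes was fixed for the transport, cleavage and turnover of SREBPs. It held the site-1 and site-2 proteases, the COPII coat, ubiquitination and turnover factors, the kinase gene Gsk3b and the coactivator gene Crtc2. Of these, 0 were called by limma in any of the 3 comparisons. At an unadjusted p under 0.05 there were 5 in knockdown against control, 3 in rescue against knockdown and 10 in rescue against control, beside 20.2%, 10.7% and 25.3% of all features, and the median in knockdown was 0.098. In knockdown 2 were called without knockdown mouse 3 and 1 without control mouse 1. In rescue against control 6 were called with array weights, 1 with only the 2 groups compared and 1 without control mouse 1. The largest knockdown differences were 0.39 for Rnf145, a ubiquitin ligase of SCAP (adjusted p = 0.0937), and 0.33 for Sar1b, a COPII GTPase (adjusted p = 0.125). Of 14 dimer partners, coactivators and corepressors, 0 were called by limma in any comparison, with 2, 1 and 6 at an unadjusted p under 0.05 in the same order (all features 20.2%, 10.7% and 25.3%), and the knockdown median was 0.10. In knockdown 1 was called without knockdown mouse 3. In rescue against control 6 were called with array weights, 5 with only the 2 groups compared and 2 without knockdown mouse 1 or 2. The largest were −0.53 for Nr0b2, the corepressor SHP (adjusted p = 0.416), and 0.32 for Ppargc1b, a coactivator (adjusted p = 0.354).

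In rescue against control, 4 SREBP-1 targets and 5 ChREBP targets were called higher and 0 lower, beside 2.12% and 0.0244% of all features. Both counts were 0 without control mouse 2, 3 or 4 or any rescue mouse. Without control mouse 1, knockdown mouse 1 or knockdown mouse 2 they were 7 and 8, and without knockdown mouse 4 they were 0 and 1. None of the SREBP-2 or LXR targets was called there, with 7 and 2 at an unadjusted p under 0.05 (25.3% of all features). Against knockdown, 0 genes of these lists were called by limma in rescue. At an unadjusted p under 0.05 there were 7 SREBP-1 targets and 5 ChREBP targets, all lower, 2 LXR targets, both higher, and 0 SREBP-2 targets, beside 10.7% of all features. The median log2 difference of rescue from knockdown was −0.35 for SREBP-1 targets, −0.31 for ChREBP targets, −0.11 for SREBP-2 targets and 0.12 for LXR targets, beside 0.093 over all features, and 5 SREBP-1 targets passed the threshold of the study downwards, as did 0.672% of all features.

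The levels of the targets were also set beside those of their regulators within each mouse, as a description with 4 mice per group. The mean log2 level of the 19 SREBP-1 targets relative to the control mean was 0.74, 1.45, 1.13 and 0.80 in knockdown mice 1 to 4. Knockdown mouse 1 thus had the highest Srebf1 (177 TPM) and the lowest target mean, and mouse 2 had the lowest Srebf1 (138 TPM) and the highest target mean. Among the knockdown mice, the order of the target means was that of Insig1 (286, 229.9, 208 and 174 TPM in mice 2, 3, 4 and 1). It differed from that of Srebf1, in which the mice ran 1, 3, 4 and 2. In control mice 1 to 4 the target means were 0.23, −0.017, −0.070 and −0.14, which was the order of Srebf1 and not that of Insig1. In rescue mice 1 to 4 the target means were 0.72, 0.92, 0.52 and 0.43, in an order that differed from those of Srebf1 and Insig1. Rescue mouse 4, whose Srebf1 was in the control range, had the lowest of these values, and it was still above the control livers, which lay between −0.14 and 0.23.

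The 13 ChREBP targets had means of 0.81, 1.03, 0.76 and 0.54 in knockdown mice 1 to 4. Knockdown mouse 4 had the highest Mlxipl (242 TPM) and the lowest of these means. Knockdown mouse 2 had the next highest Mlxipl (228 TPM) and the highest mean. In rescue mice the ChREBP target means were 0.62, 0.63, 0.50 and 0.50, a narrow range like that of Mlxipl. The SREBP-2 target means were −0.024, 0.54, 0.68 and 0.17 in knockdown mice 1 to 4, and the mice ran in the same order by Insig1 except that mice 2 and 3 changed places. The LXR target means were −0.28, 0.40, 0.15 and 0.22 in the same mice, so mouse 1 was the lowest of the 4 in SREBP-1, SREBP-2 and LXR target means and in Insig1. Values from 1 liver share its library and its scaling, and no test was run on these orders.

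**Figure D4:**
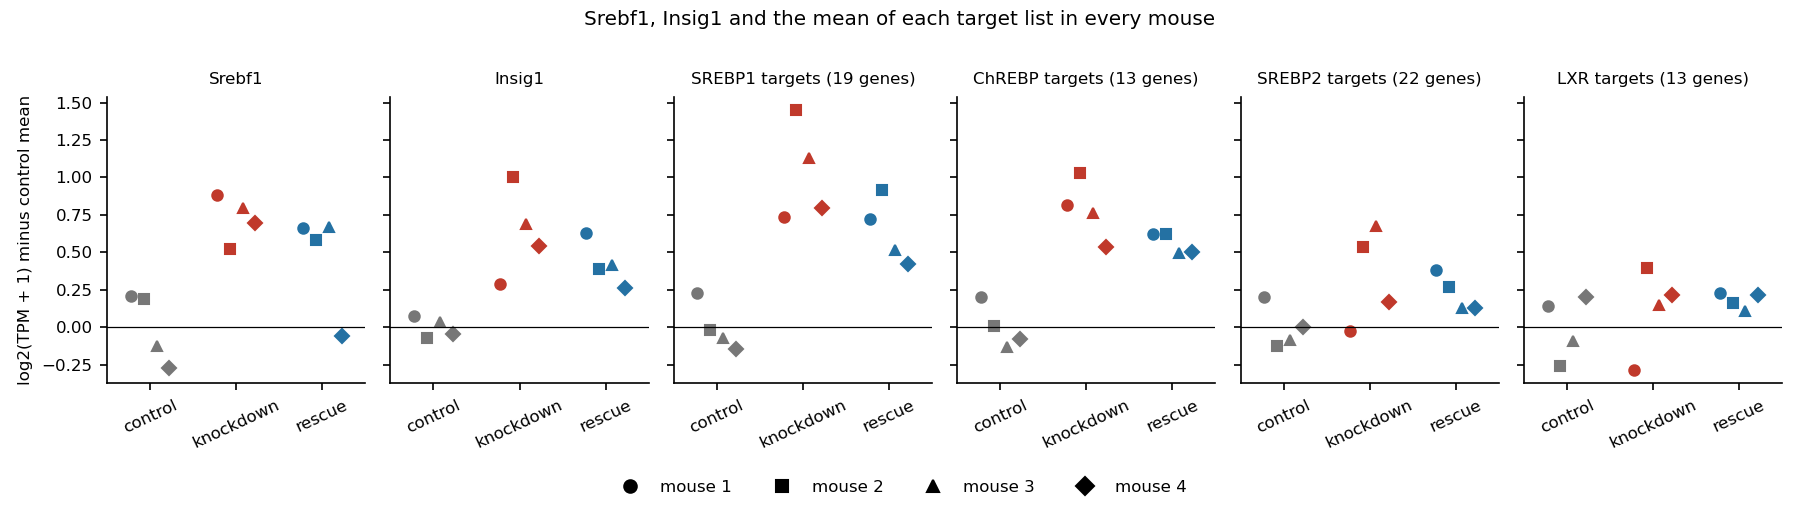
Log2(TPM + 1) minus the control mean in each mouse for Srebf1, Insig1 and the mean of the SREBP-1, ChREBP, SREBP-2 and LXR target lists. Colours mark the groups and symbol shapes mark mouse numbers, which were not used to link mice across groups. Among the 4 knockdown mice, mouse 1 is the highest in Srebf1 and the lowest in Insig1 and in the SREBP-1 target mean, and mouse 2 is the reverse.

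The genes whose pattern over the 12 livers was most like that of the called regulators were sought among the 10947 genes that averaged 5 TPM or more, by the root mean square difference of centred log2(TPM + 1) values. For Srebf1 these were Iffo2 (0.122), the kinase gene Dapk2 (0.172) and Mid1ip1 (0.173), which encodes an activator of acetyl-CoA carboxylase. The own root mean square of Srebf1 was 0.374. Mid1ip1 was at 27.2 TPM in control, 52.6 TPM in knockdown and 44.0 TPM in rescue livers on average. For Insig1 they were the cytochrome gene Cyb5b (0.0880), the acyl-CoA synthetase gene Acsl3 (0.0923) and Pgrmc2 (0.104), against an own root mean square of 0.313. Cyb5b averaged 296, 466 and 407 TPM in control, knockdown and rescue livers, Acsl3 averaged 13.2, 20.2 and 17.3 TPM, and Pgrmc2 averaged 35.9, 52.6 and 47.0 TPM.

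Cell type markers were read beside these results. Of the 8 hepatocyte markers 0 were called by limma in any comparison, while 4 in knockdown and 5 in rescue were lower than in control at an unadjusted p under 0.05 (20.2% and 25.3% of all features had such a p in either direction), and their median log2 difference was −0.38 in knockdown and −0.31 in rescue against control. Without 1 mouse, the hepatocyte count ran from 0 to 3 in knockdown and from 0 to 1 in rescue against control. Under the other settings it ran from 0 to 1 and from 0 to 2. The 6 endothelial markers summed to 104 to 182 TPM in control, 175 to 228 TPM in knockdown and 166 to 202 TPM in rescue livers, and 1 of them was called higher in knockdown, as were 2.44% of all features. That count ran from 0 to 3 without 1 mouse. Of the 11 Kupffer cell, 9 lymphocyte (8 tested), 6 stellate cell and 5 cholangiocyte markers (4 tested), 0 were called by limma in any comparison, and in knockdown against control 1 of each list had an unadjusted p under 0.05, beside 20.2% of all features. Without knockdown mouse 3, 1 Kupffer cell marker was called in knockdown. No marker of these lists was at 0 throughout a group. The part of cell composition in the differences of Srebf1, Insig1 and Mlxipl was not tested.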

How the data were processed

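Liver RNA from 12 mice was sequenced by strand-specific RNA-Seq. Per the sources of the study, the authors trimmed reads with fastp 0.23.2, checked them with FastQC 0.11.8, aligned them to GRCm38.p6 with HISAT2 2.2.1.0 and counted them with featureCounts (Subread 2.0). The deposited values are TPM per gene, which sum to 1000000 in each sample, and how counts were turned into TPM is not given in the sources used here. Of the 37 mitochondrial features, 37 were at 0, so mitochondrial transcripts take no share of these TPM. TPM keep no depth, so no counting error was available, and p-values measure the spread between the samples. The labels give 4 samples per group and do not say how animals were housed or processed in batches.

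TPM were tested as log2(TPM + 1), so fold changes of low genes are understated. limma 3.58.1 (R 4.3.3) was fitted to the 16378 of 55385 features with a mean of at least 1 TPM, in 1 model of the 3 groups with a mean-variance trend, and genes were called at a Benjamini-Hochberg adjusted p under 0.05 over all of them. The 4 within-liver ratios were compared in 3 comparisons by exact permutation. The 10 regulators and all lists were chosen with earlier results of these data known. All regulators were named. From the other lists came up to 4 called genes with the largest knockdown difference (or the 2 largest where none was called), from marker lists counts alone, and the 3 genes most like each regulator called in knockdown. Pnpla3 was named in addition, because its control mean lay below the filter. Some genes that this rule names are not reported here. Same-numbered mice did not deviate together (correlations from −0.244 to 0.154), and the reported fit did not treat them as pairs. These correlations cannot show whether a number marks a shared cage or batch. Alternatives were a pseudocount of 0.1, no filter, median-of-ratios scaling, quantile normalization, only the 2 groups compared, a replicate block, array weights and leaving out each mouse. RefSeq promoters were searched on both strands.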

Additional observations from a re-analysis of the deposited data

Results flagged for a closer look

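A mouse stood far from the other 3 of its group in 4 of the 42 gene and ratio groups examined, where the share expected from chance alone is about 1 in 20. The measure is the gap to the nearest mouse divided by the range of the group, both taken on the log2 scale. Srebf1 in rescue mice reached 0.885, through the low value of mouse 4 (92.0 TPM). Mlxipl in control mice reached 0.894, through the high value of mouse 2 (167 TPM), and in rescue mice 0.843, through the high value of mouse 3 (223 TPM). Usf1 in knockdown mice reached 0.934, through the low value of mouse 1 (24.4 TPM), in a group whose values differed by about 1 TPM. Without rescue mouse 4, the rescue difference of Srebf1 from control was 0.64 on the log2 scale (adjusted p = 0.0642 by limma). Without control mouse 2, the rescue difference of Mlxipl from control was 0.58, against 0.53 with it, and was not called (adjusted p = 0.122 by limma).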

How the results depend on the processing

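Of 570 values of single regulators under the 19 alternatives, 505 kept their direction and their side of the threshold, 29 lost a call, 9 gained one and 27 turned direction, none of these in a called difference. Regulators called in knockdown against control, 2 in the reported fit, numbered 0 with no filter and with only the 2 groups compared, and 1 with median-of-ratios scaling or quantile normalization, and 0 to 4 without 1 mouse. In rescue against control, 1 in the reported fit became 0 with no filter, median-of-ratios scaling or quantile normalization, 2 with only the 2 groups compared and 3 with array weights, and 0 to 2 without 1 mouse. In rescue against knockdown the count was 0 throughout (0 to 0 without 1 mouse). Over all alternatives, Srebf1 in knockdown ran from 0.61 to 0.82 (adjusted p from 0.0175 to 0.104, called in 8 of 19), Insig1 from 0.51 to 0.75 (0.0113 to 0.0886, called in 13) and Mlxipl in rescue against control from 0.32 to 0.58 (0.00456 to 0.241, called in 7). Calls over all features ranged with the setting other than leaving out a mouse from 33 to 683 in knockdown (529 reported) and from 9 to 3184 in rescue against control (352 reported). Median-of-ratios scaling split the knockdown calls into 332 higher and 351 lower, against 399 and 130 reported, and the rescue calls into 10 and 1 against 348 and 4. Under the same settings, called SREBP-1 targets ran from 5 to 13 in knockdown (13 reported) and from 0 to 15 in rescue (4 reported), ChREBP targets from 4 to 9 (7) and from 0 to 10 (5), SREBP-2 targets from 0 to 2 (2) and from 0 to 6 (0), LXR targets from 0 to 2 (0) and from 0 to 1 (0), and the SREBP processing genes and the partners from 0 to 0 (0) and from 0 to 6 (0). Without 1 mouse, the SREBP-1 targets ran from 8 to 16 in knockdown and from 0 to 7 in rescue, ChREBP targets from 6 to 8 and from 0 to 8, SREBP-2 targets from 0 to 6 and from 0 to 2, and calls over all features from 165 to 1057 and from 3 to 1068. The cause of these changes was not tested.

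Directions turned only for small differences. In knockdown against control, Insig2 was −0.097 with median-of-ratios scaling, −0.076 with quantile normalization and −0.087 with array weights, and −0.11 to 0.18 without 1 mouse. Nr1h3 was 0.0058 with array weights and −0.055 to 0.044 without 1 mouse, and Usf1 was −0.079 and −0.048 with the 2 scalings and −0.020 to 0.10 without 1 mouse. In rescue against knockdown, Insig2 was −0.0027 with median-of-ratios scaling, and Nr1h3 −0.041 and −0.019 with the 2 scalings. In rescue against control, the 2 scalings gave −0.069 and −0.055 for Srebf2, −0.0998 and −0.055 for Insig2, −0.16 and −0.0996 for Nr1h3, and −0.054 and −0.033 for Usf1, and without 1 mouse Insig2 ran from −0.021 to 0.27 and Nr1h3 from −0.0029 to 0.096.

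Ratios without 1 mouse ran, in knockdown against control, from 0.44 to 0.65 for Srebf1 to Srebf2, −0.77 to −0.47 for Insig2 to Insig1, 0.24 to 0.43 for Nr1h3 to Nr1h2 and 0.22 to 0.45 for Mlxipl to Mlx. In rescue against control they ran from 0.21 to 0.48, −0.47 to −0.17, 0.18 to 0.33 and 0.22 to 0.43, and in rescue against knockdown from −0.32 to −0.083, 0.18 to 0.41, −0.20 to 0.0037 and −0.093 to 0.077. With 3 against 4 mice the smallest exact p is 0.0571, so these fits cannot pass 0.05.

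With the replicate number as a block, 0 regulators were called in rescue against control (1 without it), the knockdown count stayed at 2, and the Srebf1 to Srebf2 ratio in knockdown was 0.56 with an exact p of 0.125, the smallest that 4 pairs allow. Read depth is not known from TPM and sets no stated limit on these values.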
